A study of Homo sapiens with 30 samples.

Results

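The mitosis genes described here are 39 genes whose products drive a cell from chromosome condensation to the separation of its daughters. They were taken as a list of names that was drawn up with earlier results of these data known, with no cut on any value, and their Ensembl IDs were found in the deposited table of 60675 gene IDs. All 39 were among the 17839 genes kept for testing after low counts were filtered out. The cells were SW1783, a human astrocytoma line, and treatment lasted 24 h. The vehicle group (0.1% DMSO in the sample labels, while the series text gives 2% DMSO) had 3 libraries. Palmul-tang and Sibjeondaebo-tang, 2 multi-herb formulas of traditional Korean medicine given as water extracts at 20, 100 and 500 µg/mL, had 3 libraries per dose. At the same doses there was 1 library each for Samul-tang, another formula extracted with water, and for 2 single herbs extracted with ethanol, Poria Cocos and Atractylodis Rhizoma. Nothing in the labels tells whether libraries of a group are separate cultures, and p-values reflect only how much these libraries differed among themselves, which may be technical.

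Entry into mitosis is set off by CDK1, a kinase that works only when bound to a cyclin and that is switched on in a loop with PLK1 and the Aurora kinases. Spindle microtubules are then sorted by kinesin motors and attach to kinetochores, and checkpoint proteins such as MAD2L1 and BUB1B hold back the anaphase-promoting complex until every chromosome is attached. CDC20 then turns that complex on, which destroys the cyclins and securin (PTTG1) and lets separase (ESPL1) cut cohesin. Most of these genes are transcribed in a wave late in the cell cycle through promoter elements read by the DREAM complex, MYBL2 and FOXM1. In RNA from a whole culture, fewer dividing cells and less of a transcript per dividing cell cannot be told apart.

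All 39 genes were well covered. Their mean in vehicle ran from 20.7 to 536 CPM (a gene's counts per 1 M counts of its library, with totals scaled by TMM factors). Per kilobase of exon, vehicle levels were highest for CDC20 (126 CPM per kb), PTTG1 (95.8), ANLN (89.2), TPX2 (80.8) and CCNB1 (79.7), and lowest for CENPE (6.19), SGO2 (5.60), SGO1 (5.42) and ESPL1 (2.90). Together the 39 genes took 0.433% to 0.505% of the counts of a library. Total counts ran from 22.6 M to 37.8 M, and the third library of Sibjeondaebo-tang at 500 µg/mL differed most from its replicates (chi-square per gene 8.14, with pairs of replicates starting at 2.14). Of the astrocyte and glial genes looked at, VIM and CD44 were high (4390 to 5674 and 2662 to 2965 CPM). SOX9 stood at 59.9 to 84.0 CPM, GLUL at 45.4 to 59.1, SLC1A3 at 20.6 to 28.0, NES at 5.25 to 8.11 and SLC1A2 at most at 0.52. The astrocyte markers GFAP, S100B, AQP4 and ALDH1L1 had at most 4, 4, 3 and 2 counts in a library. Of markers of other cell types, CD68 stood at 127 to 185 CPM, PTPRC at 8.07 to 12.6 and MBP at 4.90 to 8.13, and the others reached at most 1.48. The first part of the sample code in the labels differed between groups: vehicle libraries carry one code, Samul-tang another, Palmul-tang and Sibjeondaebo-tang have one in common, and Poria Cocos and Atractylodis Rhizoma have another. No label says what the code stands for, so in every comparison with vehicle the treatment and the code set cannot be told apart, while comparisons of doses and of extracts within a code set are free of it.

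The promoters of these genes shared sequence features that the list of names did not use. Windows from 250 bases before to 50 bases after a RefSeq transcription start on GRCh38.p14 were found for 34 of the 39 genes, 39 windows of 300 bases in all. AURKA, BUB3, TPX2, TTK and UBE2C had no window. The motifs searched on both strands were TTTGAA and TTTAAA, 2 forms of the cell cycle genes homology region that DREAM reads, and CCAAT, the box bound by the NF-Y factor. TTTAAA reads the same on both strands, and overlapping matches were each counted. Of the 39 windows, 25 held TTTGAA (64.1%, beside 15.2% of all 35116 windows), 16 held TTTAAA (41.0% beside 12.2%), and 32 held CCAAT (82.1% beside 34.6%). One of the first pair of motifs was in 33 windows (84.6% beside 24.0%), and together with CCAAT in 26 (66.7% beside 9.27%). The 6 windows shown are those of the 4 genes with the smallest adjusted p-values across both formulas at 500 µg/mL and of the 2 genes with the highest log2 fold changes there. They are written 5′ to 3′ on the strand of the gene, and capitals mark these 3 motifs and their reverse complements (TTCAAA for the first motif, ATTGG for the box). PLK1 lies at chr16:23678639-23678938 on the plus strand, KIF20A at chr5:138178862-138179161 plus, CCNB1 at chr5:69166900-69167199 plus, CDC20 at chr1:43358731-43359030 plus, CENPE at chr4:103198294-103198593 minus and MAD2L1 at chr4:120066799-120067098 minus.
PLK1: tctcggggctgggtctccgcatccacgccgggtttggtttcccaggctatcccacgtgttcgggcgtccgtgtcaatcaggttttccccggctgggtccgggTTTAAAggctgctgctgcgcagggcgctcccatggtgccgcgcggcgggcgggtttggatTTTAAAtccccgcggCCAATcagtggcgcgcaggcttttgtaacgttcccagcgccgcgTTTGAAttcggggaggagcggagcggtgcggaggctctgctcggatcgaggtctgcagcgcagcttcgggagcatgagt
KIF20A: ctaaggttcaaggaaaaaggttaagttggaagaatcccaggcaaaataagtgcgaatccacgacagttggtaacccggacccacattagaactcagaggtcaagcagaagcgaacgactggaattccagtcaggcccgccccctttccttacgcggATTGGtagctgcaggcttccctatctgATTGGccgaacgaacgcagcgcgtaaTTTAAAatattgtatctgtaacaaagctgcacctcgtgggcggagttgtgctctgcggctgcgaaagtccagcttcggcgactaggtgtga
CCNB1: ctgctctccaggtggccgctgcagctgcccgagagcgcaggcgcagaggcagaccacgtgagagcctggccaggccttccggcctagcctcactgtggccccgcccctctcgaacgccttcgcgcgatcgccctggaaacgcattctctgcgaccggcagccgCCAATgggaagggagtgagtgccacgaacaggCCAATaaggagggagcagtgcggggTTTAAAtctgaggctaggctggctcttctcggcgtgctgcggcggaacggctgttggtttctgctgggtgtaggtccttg
CDC20: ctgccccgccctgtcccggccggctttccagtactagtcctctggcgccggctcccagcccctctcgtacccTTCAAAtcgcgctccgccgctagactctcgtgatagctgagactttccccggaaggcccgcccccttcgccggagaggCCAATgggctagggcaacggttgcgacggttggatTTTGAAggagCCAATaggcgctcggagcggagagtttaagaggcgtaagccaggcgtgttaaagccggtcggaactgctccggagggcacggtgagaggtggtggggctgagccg
CENPE: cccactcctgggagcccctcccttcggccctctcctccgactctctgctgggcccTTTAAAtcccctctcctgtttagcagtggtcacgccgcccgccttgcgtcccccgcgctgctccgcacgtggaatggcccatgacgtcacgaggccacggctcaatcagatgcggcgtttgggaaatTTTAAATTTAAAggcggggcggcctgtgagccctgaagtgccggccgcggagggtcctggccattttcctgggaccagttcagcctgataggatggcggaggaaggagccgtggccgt
MAD2L1: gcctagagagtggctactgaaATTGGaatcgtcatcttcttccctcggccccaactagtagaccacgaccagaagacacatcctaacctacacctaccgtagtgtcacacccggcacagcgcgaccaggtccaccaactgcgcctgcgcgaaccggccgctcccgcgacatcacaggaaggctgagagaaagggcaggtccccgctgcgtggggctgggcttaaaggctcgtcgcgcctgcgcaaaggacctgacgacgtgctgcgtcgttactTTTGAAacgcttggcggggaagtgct
The PLK1 window held 1 TTTGAA, 2 TTTAAA and 1 CCAAT, and that of CDC20 held 2 TTTGAA and 2 CCAAT. KIF20A and CCNB1 each had 1 TTTAAA and 2 CCAAT. CENPE had 3 TTTAAA and no CCAAT, and MAD2L1 had 1 TTTGAA and 1 CCAAT. Both the genes that were lower and those that were higher than vehicle thus carried these letters, and a match is a description of the sequence only.

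At 500 µg/mL the genes for the mitotic kinases PLK1, AURKA and AURKB and for cyclins B1 and B2 were lower than in vehicle with both formulas. So were CDC20 and UBE2C, which drive anaphase, and PTTG1, the securin that holds it back. These differences ran from 1.13-fold for PTTG1 with Palmul-tang up to 1.28-fold for PLK1 with Sibjeondaebo-tang. Among checkpoint and kinetochore genes CENPA was lower with both, CENPE was higher with both, and MAD2L1 was higher with Palmul-tang. With Palmul-tang 15 of the 39 genes were called lower and 4 higher at an adjusted p of 0.05 (edgeR's quasi-likelihood test, Benjamini-Hochberg), where 14.9% and 12.9% of all tested genes were called lower and higher. With Sibjeondaebo-tang 16 were lower and 1 higher, beside 13.3% and 11.7% of all genes. Higher calls were thus no more frequent among the 39 genes than among all genes. The median log2 fold change of the 39 genes was -0.02 and -0.05 (0.04 and 0.01 when scaled by total counts alone), and that of all genes lay between -0.01 and 0.01 in every comparison of the study. Without regard to the test, 16 genes had all Palmul-tang libraries below all vehicle libraries and 7 had them above (21.8% and 20.7% of all genes), and with Sibjeondaebo-tang 17 were below and 0 above (17.9% and 17.3%). The comparisons of both formulas share the 3 vehicle libraries and are not independent. The 39 genes had mean log2 CPM values of at least 4.3, while 10294 of the 17839 tested genes reached 3. The shares of all genes thus include many genes with fewer counts, where a like difference is harder to call.

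**Figure D1:**
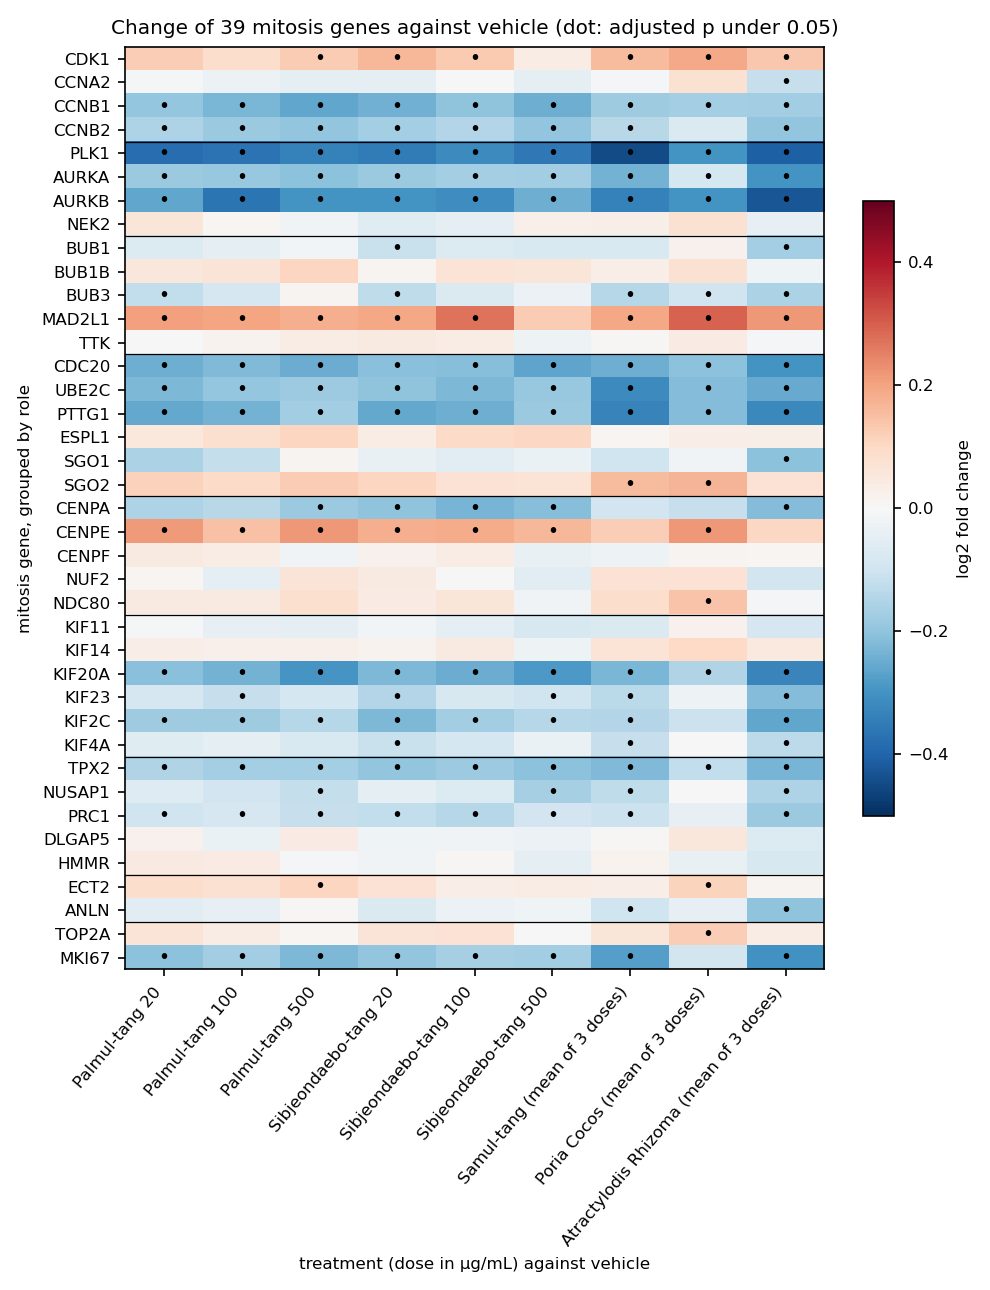
Log2 fold change against vehicle of the 39 mitosis genes (rows, ordered by role) in 9 comparisons (columns: both formulas at 3 doses, and the mean over 3 doses of the extracts with 1 library per dose). Dots mark genes called at an adjusted p of 0.05. PLK1, AURKB, KIF20A, CCNB1 and CDC20 are lower in every column, and CENPE and MAD2L1 are higher.

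Among the kinases of the list, PLK1, AURKA and AURKB were lower with each formula, CDK1 was higher with Palmul-tang, and NEK2, which separates centrosomes, and the checkpoint kinases BUB1 and TTK were not called. PLK1 (ENSG00000166851, chromosome 16, 23677656 to 23690367 in GRCh38), which acts at entry into mitosis, at the spindle and in cytokinesis, stood at 185, 162 and 179 CPM in the vehicle libraries. It stood at 139, 139.5 and 138 CPM with Palmul-tang and 134, 136 and 141 with Sibjeondaebo-tang at 500 µg/mL. All 18 libraries of both formulas, at any dose, lay between 132 and 143 CPM, below the lowest vehicle library. PLK1 was 1.26-fold lower with Palmul-tang (log2 fold change -0.34 ± 0.039 SE, adjusted p = 3.74e-08) and 1.28-fold lower with Sibjeondaebo-tang (-0.36 ± 0.039, adjusted p = 1.19e-08). AURKB, the kinase of the chromosomal passenger complex, stood at 51.4, 56.6 and 50.5 CPM in vehicle, 42.4, 43.2 and 43.1 with Palmul-tang and 43.2, 44.1 and 46.2 with Sibjeondaebo-tang, with no overlap. Its log2 fold changes were -0.30 ± 0.051 (adjusted p = 2.73e-05) and -0.25 ± 0.050 (adjusted p = 0.000339). AURKA, which matures the spindle poles, had 137, 137 and 137 CPM in vehicle, 121, 115 and 121 with Palmul-tang and 121, 125 and 119.5 with Sibjeondaebo-tang. It too fell below every vehicle library, with log2 fold changes of -0.20 (adjusted p = 1.46e-05) and -0.17 (adjusted p = 0.000156). PLK1 shares 553 exon bases with AC008870.3 and 42 with ERN2, both on the other strand. Its expected counts were whole numbers in 8 of the 30 libraries. The strand used in counting is not given in the sources used here, and 13 of the 39 genes share exon bases with a gene on the opposite strand in GENCODE 29.

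Among CDK1 and its cyclins the B cyclins fell and CDK1 did not. CCNB1 (ENSG00000134057, chromosome 5, 69167010 to 69178245), the main partner of CDK1 in mitosis, stood at 199.6, 210.1 and 202 CPM in vehicle, 174, 168 and 169 with Palmul-tang and 173, 169.9 and 172 with Sibjeondaebo-tang. The groups did not overlap, and the log2 fold changes were -0.26 ± 0.036 (adjusted p = 1.35e-06) and -0.24 ± 0.036 (adjusted p = 3.69e-06). CCNB2, the related cyclin, stood at 82.1, 75.9 and 81.8 CPM in vehicle against 66.1, 68.4 and 74.8 and 70.3, 71.2 and 68.0, again without overlap. Its log2 fold changes were -0.20 (adjusted p = 0.00065) and -0.20 (adjusted p = 0.000651). CCNA2, the cyclin of S phase and early mitosis, was not called (-0.04 and -0.05). CDK1 itself stood at 70.3, 72.7 and 72.9 CPM in vehicle, 77.5, 79.7 and 78.8 with Palmul-tang and 74.3, 75.5 and 71.5 with Sibjeondaebo-tang. It was higher with Palmul-tang (log2 fold change 0.13 ± 0.047, adjusted p = 0.0365) and not called with Sibjeondaebo-tang (0.04 ± 0.047, adjusted p = 0.636), where its libraries overlapped those of vehicle. The call for CDK1 was lost when any 1 of the 6 libraries was left out (adjusted p 0.0578 to 0.149).

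Of the 6 genes of anaphase and cohesin, 3 fell with each formula. CDC20 (ENSG00000117399, chromosome 1, 43358955 to 43363203), the activator of the anaphase-promoting complex, stood at 263, 252 and 254 CPM in vehicle, 214, 219 and 213 with Palmul-tang and 203, 207 and 229.9 with Sibjeondaebo-tang. All treated libraries were lower, by log2 -0.25 ± 0.038 (adjusted p = 4.42e-06) and -0.26 ± 0.038 (adjusted p = 1.85e-06). UBE2C, the enzyme that hands ubiquitin to that complex, had 99.8, 91.2 and 92.1 CPM in vehicle against 84.1, 84.2 and 81.5 and 82.0, 80.3 and 86.3 with the formulas. PTTG1, the inhibitor of separase, had 206, 188 and 185 CPM in vehicle against 173, 174 and 167 and 173, 168 and 169. Neither gene's treated libraries reached the vehicle range. UBE2C changed by -0.18 and -0.19 and PTTG1 by -0.17 and -0.18 on the log2 scale. ESPL1, separase itself, and SGO1 and SGO2, which shield cohesin at the centromere, were not called, with log2 fold changes of 0.11 and 0.10, 0.01 and -0.03, and 0.13 and 0.07 for Palmul-tang and Sibjeondaebo-tang.

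Calls among the kinesins were mostly lower. Of the 6 genes named KIF, KIF20A and KIF2C fell with both formulas and KIF23 with Sibjeondaebo-tang, and CENPE, the kinesin of the kinetochore, rose with both. KIF20A (ENSG00000112984, chromosome 5, 138178719 to 138187715), a motor of the central spindle, stood at 137, 133 and 133 CPM in vehicle, 109.6, 106 and 113 with Palmul-tang and 110.1, 109 and 110.4 with Sibjeondaebo-tang. The 18 formula libraries ranged from 106 to 117 CPM, all below vehicle, and the log2 fold changes at 500 µg/mL were -0.29 ± 0.034 (adjusted p = 3.34e-08) and -0.29 ± 0.034 (adjusted p = 4.21e-08). KIF2C, which takes tubulin off microtubule ends, changed by -0.14 with each formula. These calls were lost without vehicle library 1 or Palmul-tang library 1 (adjusted p up to 0.157), and without vehicle library 1 or Sibjeondaebo-tang library 1 or 2 (up to 0.162). KIF23, a motor of the midbody, had -0.09 with Palmul-tang, which was not called, and -0.10 with Sibjeondaebo-tang, which was lost without vehicle library 1 or 2 or Sibjeondaebo-tang library 2 or 3 (adjusted p up to 0.172). KIF11, which pushes the poles apart, KIF14 and KIF4A were not called.

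Among the spindle binding proteins TPX2, NUSAP1 and PRC1 fell with both formulas, and DLGAP5 and HMMR were not called. TPX2, which activates AURKA on microtubules, stood at 294, 291 and 287 CPM in vehicle, 262, 264 and 252 with Palmul-tang and 255, 255 and 248 with Sibjeondaebo-tang. Its log2 fold changes were -0.17 (adjusted p = 0.000115) and -0.20 (adjusted p = 8.37e-06), with no overlap. NUSAP1, which bundles microtubules, changed by -0.12 and -0.17, and PRC1, which crosslinks the central spindle, by -0.12 and -0.09. NUSAP1 shares 1787 exon bases with AC087721.2 and PRC1 shares 3181 with AC068831.7 on the same strand. Such overlaps can leave counts less certain. Expected counts of PRC1 were whole numbers in 6 of the 30 libraries, and those of NUSAP1 in all 30. The PRC1 call with Sibjeondaebo-tang was lost without vehicle library 2 or 3 or Sibjeondaebo-tang library 3 (adjusted p up to 0.0806). MKI67, the gene of the proliferation antigen Ki-67, which coats mitotic chromosomes, stood at 309, 286 and 302 CPM in vehicle. It stood at 256, 254 and 258 CPM with Palmul-tang and 254, 278 and 264 with Sibjeondaebo-tang, all lower, with log2 fold changes of -0.22 (adjusted p = 0.000267) and -0.18 (adjusted p = 0.00349). TOP2A, the enzyme that untangles chromosomes, had 0.01 and 0.00 and was not called.

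Of the 5 kinetochore genes CENPA and CENPE were called with both formulas. CENPA, the histone that marks the centromere, had log2 fold changes of -0.18 and -0.21, and CENPE, the motor that brings chromosomes to the plate, rose. CENPE stood at 61.0, 57.8 and 56.7 CPM in vehicle, 68.1, 69.8 and 66.5 with Palmul-tang and 68.1, 70.9 and 58.2 with Sibjeondaebo-tang. Palmul-tang libraries were all above vehicle (log2 fold change 0.22 ± 0.052, adjusted p = 0.00162), while 1 Sibjeondaebo-tang library lay within it (0.17 ± 0.052, adjusted p = 0.0158). That second call was lost without vehicle library 2 or 3 or Sibjeondaebo-tang library 1 or 2 (adjusted p up to 0.155). CENPF, NUF2 and NDC80 were not called. Of the 5 checkpoint genes, MAD2L1 alone was called, with Palmul-tang. MAD2L1 stood at 42.7, 46.9 and 40.9 CPM in vehicle, 47.7, 50.2 and 49.6 with Palmul-tang and 48.3, 45.3 and 48.6 with Sibjeondaebo-tang. Its log2 fold change was 0.18 ± 0.056 (adjusted p = 0.0155) and 0.13 ± 0.056 (adjusted p = 0.095), and the Palmul-tang call was lost without vehicle library 1 or 3 or Palmul-tang library 2 or 3 (adjusted p up to 0.108). ECT2, which sets the site of the cleavage furrow, stood at 179, 170.4 and 178 CPM in vehicle, 187, 194 and 188 with Palmul-tang and 188, 181 and 173 with Sibjeondaebo-tang. It rose by 0.11 ± 0.035 with Palmul-tang (adjusted p = 0.0186, and up to 0.113 without vehicle library 2 or Palmul-tang library 2) and had 0.04 with Sibjeondaebo-tang, and ANLN, its partner at the furrow, was not called.

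**Figure D2:**
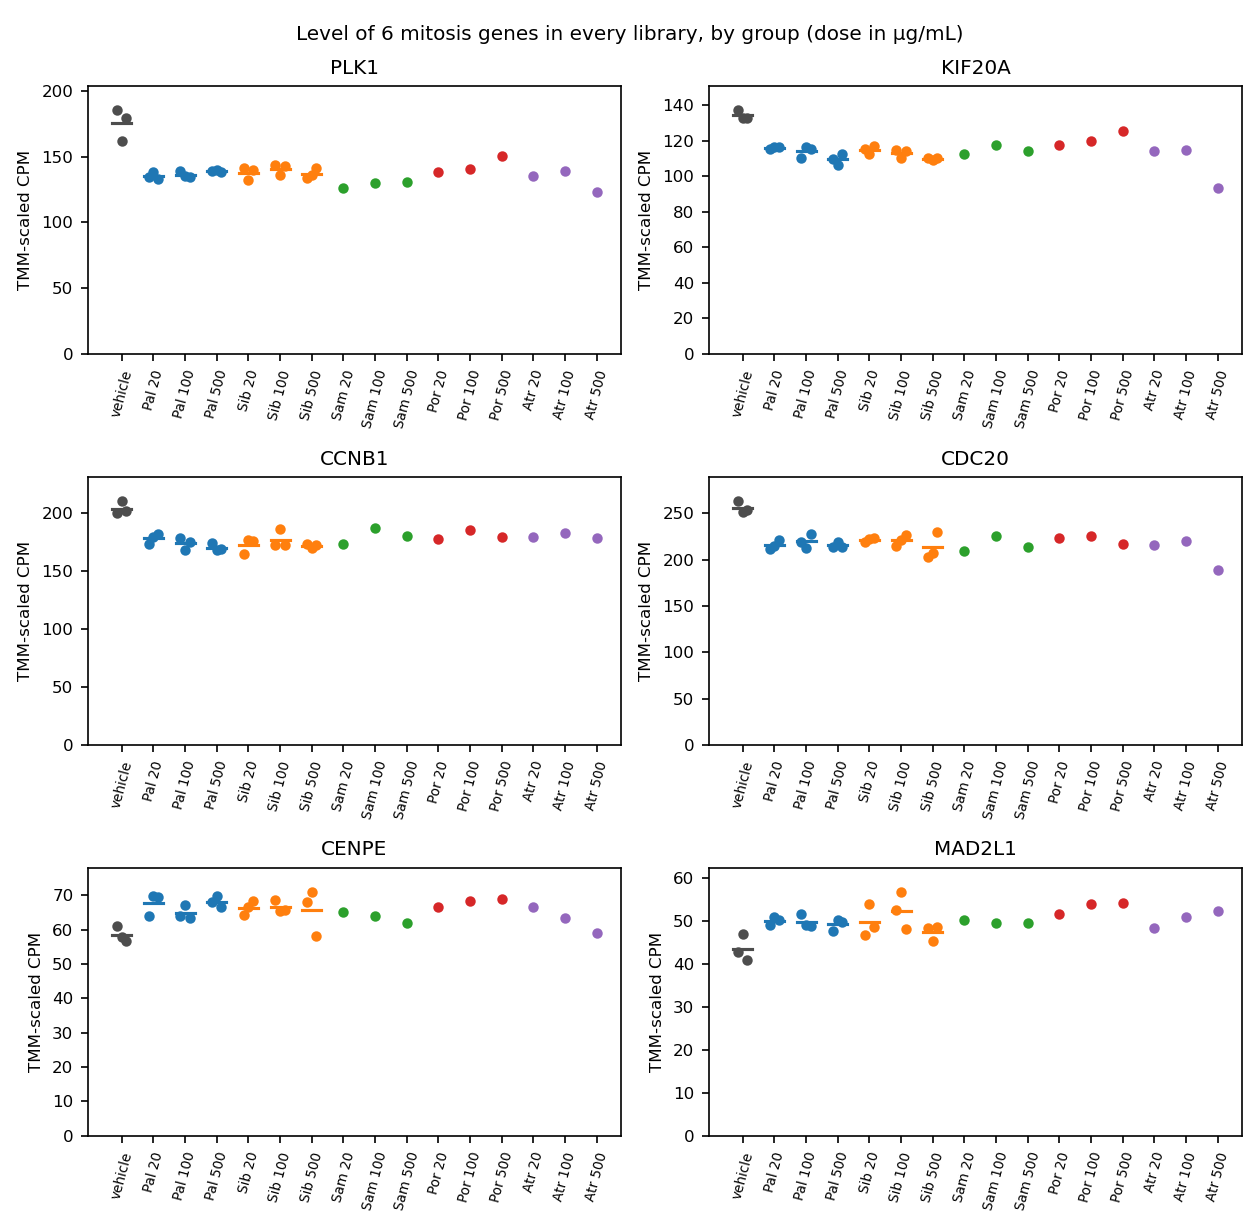
CPM of 6 mitosis genes in each library, by group, with 1 point per library. PLK1, KIF20A, CCNB1 and CDC20 lie below the vehicle points in all libraries of both formulas at every dose, and CENPE and MAD2L1 lie mostly above them.

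The direction of these differences followed the base composition of the transcripts. At 500 µg/mL of Palmul-tang, of the 19 mitosis genes with a GC content above their median (42.98%), 15 were lower and 0 higher. Of the other 20 genes 0 were lower and 4 higher. The genes called lower had 43.64% to 57.2% GC and those called higher 35.45% to 39.25%. PLK1 (57.2%), CDC20 (56.88%) and AURKB (56.13%) are at one end, and CENPE (35.45%), CDK1 (35.75%), ECT2 (38.07%) and MAD2L1 (39.25%) at the other. Across the 39 genes Pearson's r between GC content and log2 fold change was -0.721 for Palmul-tang and -0.655 for Sibjeondaebo-tang, and across the 10294 tested genes at or above a mean log2 CPM of 3 it was -0.455 and -0.383. All points share the same libraries, and genes are not independent replicates. After a trend of GC content and length was removed from each library, 22 genes were lower and 1 higher with Palmul-tang, and 27 and 1 with Sibjeondaebo-tang, with medians of -0.12 and -0.13. With Palmul-tang 14 of the lower genes were then among the 19 with more GC and 8 among the other 20. In that fit 14.4% and 10.6% of all genes were lower and higher with Palmul-tang (median -0.01), and 14% and 10.7% with Sibjeondaebo-tang (median -0.005). PLK1 (-0.25 and -0.29), KIF20A (-0.28 and -0.29), CCNB1 (-0.31 and -0.29) and CDC20 (-0.17 and -0.20) were still called lower. The 4 genes higher with Palmul-tang were not: CENPE had 0.05 (adjusted p = 0.382), MAD2L1 0.06 (adjusted p = 0.488), and CDK1 and ECT2 -0.03 each. ESPL1, at 56.86% GC, was then the gene called higher, by 0.18 (adjusted p = 0.00502) and 0.16 (adjusted p = 0.0145).

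**Figure D3:**
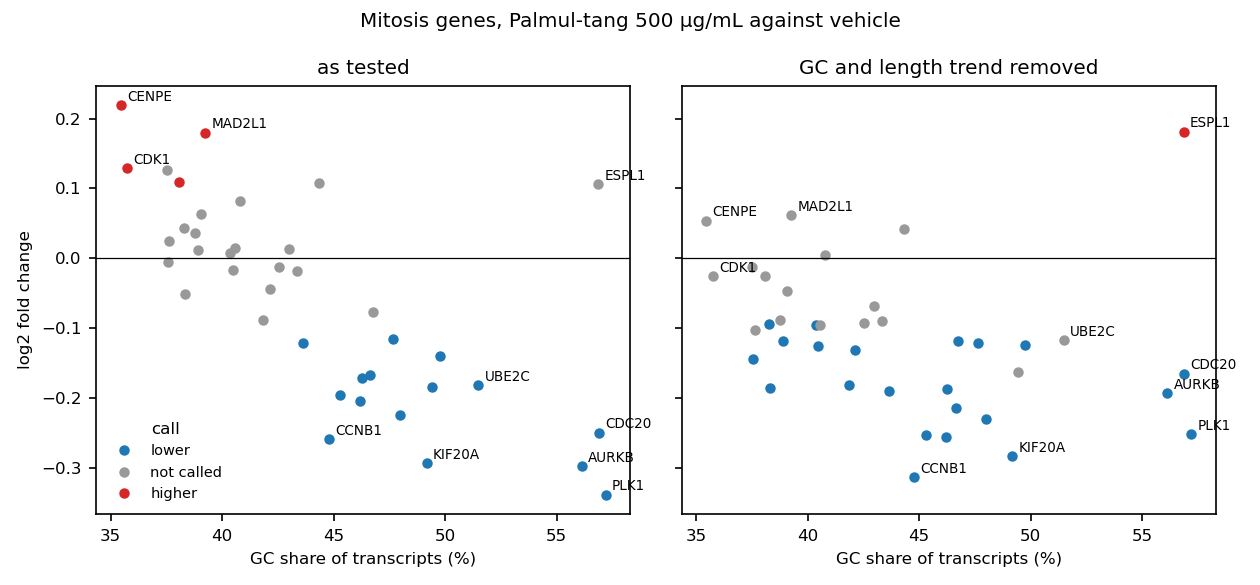
Log2 fold change of Palmul-tang at 500 µg/mL over vehicle against the GC content of the transcripts (percent) for the 39 mitosis genes, as tested and after a trend of GC content and length was removed from each library. As tested the points slope downward (r = -0.721), and every gene called lower has a higher GC content than any gene called higher.

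TMM factors were 0.960 to 0.971 in vehicle and 0.991 to 1.017 in all other libraries. With total counts alone every difference from vehicle moved up by about the same amount. The median of the 39 genes was then 0.04 with Palmul-tang and 0.01 with Sibjeondaebo-tang at 500 µg/mL, beside 0.06 and 0.06 for all genes, so the mitosis genes still lay below the median of all genes. On that scale 11 were lower and 8 higher with Palmul-tang (9.57% and 19.8% of all genes), and 12 and 5 with Sibjeondaebo-tang (8.29% and 18.7%).

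Differences from vehicle of a like size were there at the lowest dose. With Palmul-tang 14 genes were lower and 2 higher at both 20 µg/mL (13.3% and 10.5% of all genes) and 100 µg/mL (12.8% and 10.2%). With Sibjeondaebo-tang 18 were lower and 3 higher at 20 µg/mL (13.3% and 10.5%), and 14 and 3 at 100 µg/mL (13.3% and 11.3%). PLK1 had log2 fold changes of -0.38, -0.37 and -0.34 at 20, 100 and 500 µg/mL of Palmul-tang and of -0.35, -0.32 and -0.36 with Sibjeondaebo-tang. CCNB1 had -0.19, -0.23 and -0.26, and -0.24, -0.20 and -0.24. KIF20A had -0.21, -0.24 and -0.29, and -0.22, -0.25 and -0.29. These comparisons share the vehicle libraries, so the values are side by side only.

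The direct comparison of 500 with 20 µg/mL, within a code set and without vehicle, asked whether the 39 mitosis genes differ by dose. With Palmul-tang 1 of the 39 genes was higher and 0 were lower at 500 µg/mL by edgeR's quasi-likelihood test (2.83% and 2.47% of all genes), 4 had an unadjusted p under 0.05, and the Wald test of DESeq2 gave the same counts. That gene was BUB3, a checkpoint protein at unattached kinetochores. BUB3 stood at 151, 147 and 149.9 CPM at 20 µg/mL and 169, 168 and 156 at 500, without overlap, and at 164, 164 and 159.9 in vehicle. Its rise was 1.1-fold (log2 0.14 ± 0.037, adjusted p = 0.0201) and was lost without library 1 or 2 at 500 or library 2 or 3 at 20 µg/mL (adjusted p up to 0.146). With Sibjeondaebo-tang it had 153, 152 and 142 CPM at 20 and 167, 154 and 158 at 500 µg/mL (0.10, adjusted p = 0.117). With Sibjeondaebo-tang 0 of 39 genes were called (2.79% of all genes were lower and 3.45% higher), also by the Wald test of DESeq2, and 5 had an unadjusted p under 0.05. The estimates nearest to a call were CDK1 (-0.13, adjusted p = 0.0916) and NUSAP1 (-0.12, adjusted p = 0.0926). Both were called lower by edgeR's test with the replicate number added as a block (adjusted p = 0.0446 and 0.0488). The 95% interval of the change lay within 1.2-fold for 38 of 39 genes with Palmul-tang, SGO1 being the exception (0.17), and for 39 of 39 with Sibjeondaebo-tang. It lay within 1.1-fold for 26 and 23. PLK1, which stood farthest from vehicle, changed by 0.04 ± 0.039 and -0.01 ± 0.039 from 20 to 500 µg/mL.

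**Figure D4:**
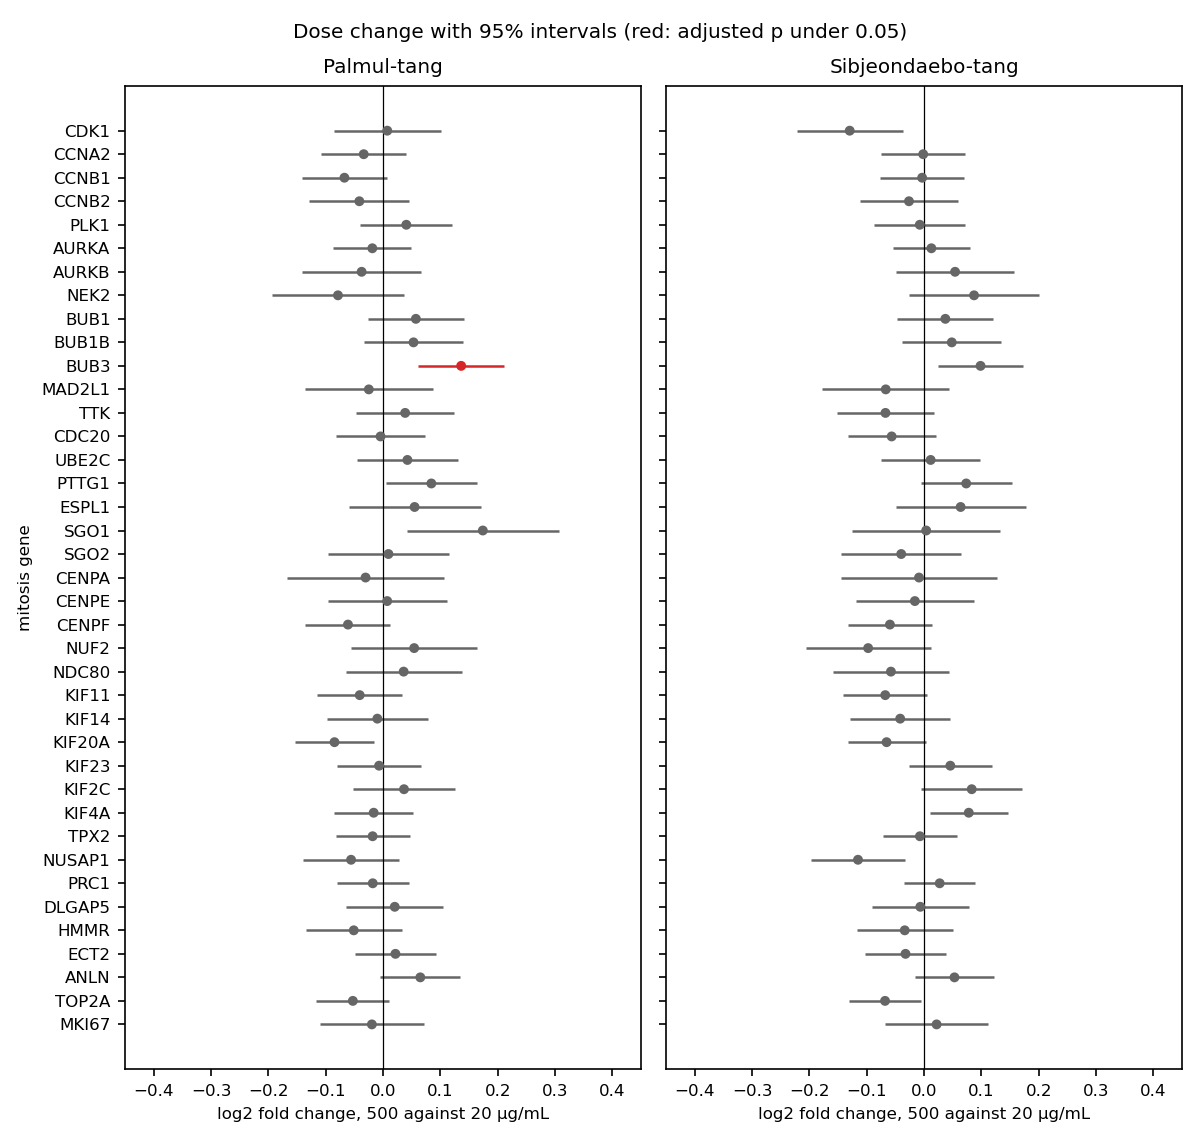
Log2 change of the 39 mitosis genes from 20 to 500 µg/mL with 95% intervals, for Palmul-tang and Sibjeondaebo-tang, with genes called at an adjusted p of 0.05 in red. BUB3 with Palmul-tang is the 1 gene called, and nearly all intervals stay within 1.2-fold.

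The composition of the formulas was compared at matched doses, over 9 libraries of each. Sibjeondaebo-tang adds further herbs to those of Palmul-tang. Of the 39 genes 0 were called between them (0.00561% of all genes), by edgeR and by DESeq2, and 1 had an unadjusted p under 0.05. The estimates ran from -0.06 to 0.05, 29 of 39 were lower with Sibjeondaebo-tang, and all 39 intervals lay within 1.1-fold. The change from 20 to 500 µg/mL did not differ by the test between the formulas for any of the 39 genes (0% of all genes were called). Of those 39 genes 2 had an unadjusted p under 0.05, DESeq2 called 0, and the interval of the difference lay within 1.2-fold for 35 genes and within 1.5-fold for all 39.

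The extracts with 1 library per dose were compared with vehicle as a mean over their 3 doses, with the spread taken from the replicated groups. With Samul-tang 18 genes were lower and 3 higher (15.7% and 12% of all genes), with a median of -0.09. With Poria Cocos 10 were lower and 7 higher (15.3% and 12.1%; median 0.00), and with Atractylodis Rhizoma 22 were lower and 2 higher (15.3% and 12.4%; median -0.15). PLK1 had -0.45 ± 0.040 with Samul-tang, -0.30 ± 0.039 with Poria Cocos and -0.41 ± 0.039 with Atractylodis Rhizoma. In CPM at 20, 100 and 500 µg/mL, PLK1 stood at 126, 129.8 and 131 with Samul-tang, 138, 140.3 and 151 with Poria Cocos and 136, 139 and 123 with Atractylodis Rhizoma, all below the vehicle libraries. PTTG1, the securin gene, had -0.33, -0.22 and -0.32 in that order. MAD2L1 was higher in each, by 0.19, 0.29 and 0.22, and CDK1 by 0.16, 0.19 and 0.13. The GC pattern was there too, with r across the 39 genes of -0.750, -0.767 and -0.705. With the trend removed 27 genes were lower and 0 higher with Samul-tang (14.8% and 9.6% of all genes), 17 and 1 with Poria Cocos (12.3% and 8.8%), and 31 and 0 with Atractylodis Rhizoma (14.2% and 10.3%).

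Poria Cocos and Atractylodis Rhizoma, both ethanol extracts within a code set, differed from each other. Of the 39 mitosis genes 10 were higher with Poria Cocos and 0 lower, beside 0.718% and 0.701% of all genes; by the Wald test of DESeq2 12 were higher and 0 lower, and 27 had an unadjusted p under 0.05. The 10 genes were AURKA, KIF20A, KIF23, KIF4A, CCNA2, MKI67, BUB1, NUSAP1, PRC1 and ANLN, which span kinases, kinesins, cyclins and cytokinesis. The estimate was above 0 for all 39 genes, with a median of 0.11, and for 20 genes every Poria Cocos library lay above every Atractylodis Rhizoma library (7.56% of all genes, and 7.84% the other way, where no mitosis gene lay). AURKA stood at 125, 128 and 135 CPM at 20, 100 and 500 µg/mL of Poria Cocos and at 115, 116 and 104 with Atractylodis Rhizoma. It was higher with Poria Cocos at every dose, by 0.21 ± 0.033 on the log2 scale (adjusted p = 0.000236). KIF23 stood at 117, 120.1 and 124 CPM against 112, 108 and 96.8 (0.19, adjusted p = 0.00157), and KIF20A at 118, 119.8 and 126 against 114, 114 and 93.6 (0.18, adjusted p = 0.00192). CCNA2 stood at 83.1, 84.9 and 93.2 CPM against 80.3, 80.1 and 68.8 (0.19, adjusted p = 0.00231). For AURKA, KIF23, KIF20A and CCNA2 the gap was widest at 500 µg/mL, where the extracts moved apart. ANLN, an actin scaffold of the furrow, stood at 516, 519.8 and 531 CPM against 495, 485 and 423. PRC1 stood at 151, 164 and 164 CPM against 149, 148 and 137, and both of these gaps were widest at 500 µg/mL too. The median difference of the 39 genes was 0.21 at 500 µg/mL, with all 39 higher with Poria Cocos, 0.08 at 100 with 36 higher, and 0.05 at 20 with 32 higher, while that of all genes was 0.00 at each dose. Across the 39 genes the difference had an r of 0.031 with GC content. Without the 500 µg/mL library of either extract 1 gene was called, AURKA, so the count rests on those libraries.

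Within Atractylodis Rhizoma the 500 µg/mL library was lower than the 20 µg/mL library for 36 of the 39 genes, with a median of -0.12 and no test, since each dose had 1 library. Past 1.2-fold lower were KIF20A (-0.28), SGO1 (-0.28) and MKI67 (-0.28), 3 of 39 beside 11.7% of all genes, and none was past 1.2-fold higher beside 12.5%. With Poria Cocos the median was 0.04, with 27 genes higher and 12 lower, and with Samul-tang 0.01, with 23 higher and 16 lower, and no mitosis gene was past 1.2-fold in these extracts, where 12% of all genes were lower and 13% higher with Poria Cocos, and 12.9% and 13.5% with Samul-tang. The median of all genes was 0.00 in each. The shares past 1.2-fold include many genes with fewer counts than the 39. Against the vehicle mean the median of the 39 genes was -0.11, -0.11 and -0.22 at 20, 100 and 500 µg/mL of Atractylodis Rhizoma and -0.04, 0.02 and 0.00 of Poria Cocos. In the Atractylodis Rhizoma library at 500 µg/mL the median of 68 further mitosis genes was -0.18 and that of 50 S phase genes -0.11. The 18 formula libraries lay between -0.12 and -0.03, with library 3 of Sibjeondaebo-tang at 500 µg/mL lowest, and vehicle libraries between -0.02 and 0.02.

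**Figure D5:**
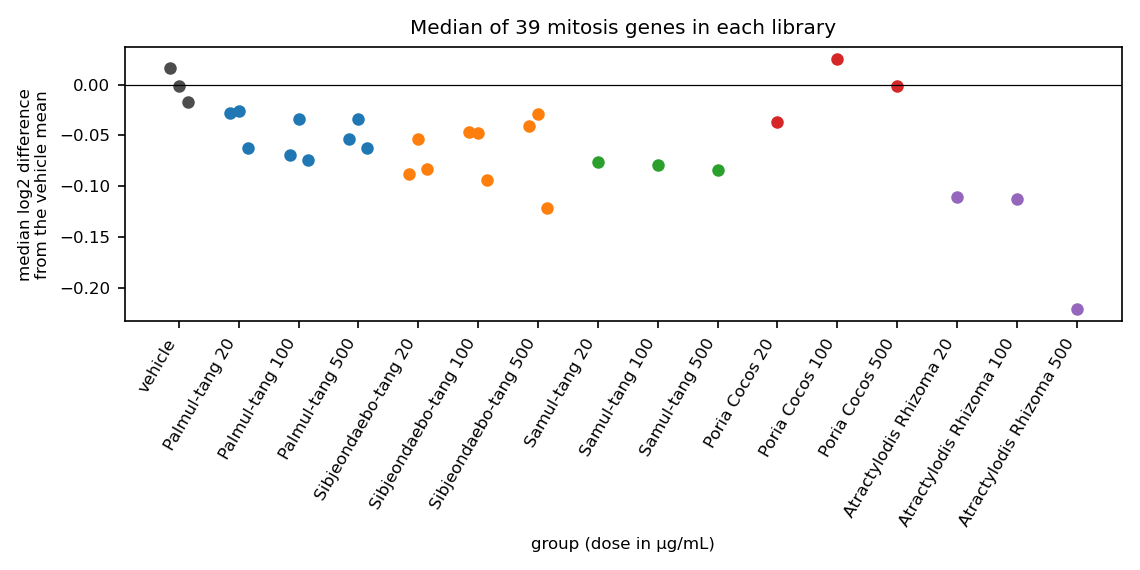
Median over the 39 mitosis genes of log2 CPM minus the vehicle mean, 1 point per library, by extract and dose. The Atractylodis Rhizoma library at 500 µg/mL is lowest at -0.22, and the Poria Cocos libraries lie near the vehicle libraries.

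Other genes of the cell cycle were taken as lists chosen by function. Their counts stand beside 14.9% of all genes lower and 12.9% higher with Palmul-tang, and 13.3% and 11.7% with Sibjeondaebo-tang, at 500 µg/mL against vehicle. Of 68 further mitosis genes 18 were lower and 13 higher with Palmul-tang at 500 µg/mL (median -0.03), and 20 and 7 with Sibjeondaebo-tang (median -0.05). BIRC5, the survivin gene of the passenger complex, fell by 0.32 with Palmul-tang and CENPM by 0.45, and CENPI and KNTC1 rose by 0.37 each. Of 20 regulators of cell cycle transcription 5 were lower and 3 higher with Palmul-tang, and 4 and 1 with Sibjeondaebo-tang. Both activators of mitotic transcription fell: FOXM1 from 210 ± 5.79 CPM (SD, n = 3) in vehicle to 174 ± 7.46 and 174 ± 1.24, and MYBL2 from 51.0 ± 2.61 to 37.6 ± 1.03 and 36.7 ± 1.79. Their log2 fold changes were -0.27 and -0.27 for FOXM1 and -0.44 and -0.48 for MYBL2. E2F1, which drives S phase genes, had 0.02 and 0.05 and was not called. Values with the GC trend removed are not given for these lists. A link from these regulators to the mitosis genes was not tested. Of 50 S phase genes 4 were lower and 13 higher with Palmul-tang (median 0.05) and 7 and 6 with Sibjeondaebo-tang (median 0.05). Of 16 genes of the anaphase-promoting complex 2 were lower and 3 higher with each, near those shares. Of 13 tested genes of G1 cyclins, their kinases and inhibitors 5 were lower and 0 higher with Palmul-tang and 6 and 0 with Sibjeondaebo-tang, among them CCND1 (-0.31 and -0.30), the cyclin of G1. Of 24 tested p53 targets 5 were lower and 6 higher, and 4 and 4. CDKN1A, the p21 inhibitor, had -0.12 and -0.13 against vehicle and was not called, and it rose by 0.22 from 20 to 500 µg/mL of Palmul-tang (adjusted p = 0.0183). Between 20 and 500 µg/mL of Palmul-tang 1 of the 68 further mitosis genes was lower, BIRC5 (-0.19, adjusted p = 0.00143), and 1 higher, HJURP (0.24, adjusted p = 0.00177), which loads CENPA onto centromeres, beside 2.47% and 2.83% of all genes. With Sibjeondaebo-tang 0 were lower and 5 higher (2.79% and 3.45%), HJURP (0.23), CENPK, CDCA5, CDC25A and CKAP2L. In each formula 5 of the 24 p53 targets were higher and 0 lower at 500 than at 20 µg/mL, among them GADD45A (0.32 and 0.34). Between Poria Cocos and Atractylodis Rhizoma 6 of the 68 further mitosis genes were higher and 0 lower with Poria Cocos, and 1 of the 50 S phase genes, RRM2 (0.16). FOXM1, MYBL2, E2F1, CCND1 and CDKN1A were not called there (0.05, 0.05, 0.00, 0.08 and -0.04).

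The 39 genes varied little together beyond the groups. Over the 21 libraries of groups with 3 libraries, deviations from the group means had a median correlation of 0.0998 across 741 pairs of genes, and 60.7% of pairs were above 0. Over the levels in all 30 libraries the median was 0.303 and 78.9% were above 0. All pairs share the same libraries and scaling, so these values are a description only. The within-group SD of the median over the 39 genes was 0.027 on the log2 scale in the groups with 3 libraries. The Atractylodis Rhizoma library at 500 µg/mL, the lowest of all 30, stood at -0.22 from the vehicle mean. That library has no replicate and another code set than vehicle, so the SD is not a measure of its difference.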

How the data were processed

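RNA of SW1783 cells was sequenced in 30 libraries of 16 groups. The authors deposited expected counts for each gene, and 24% of the values above 0 were fractional. Of the 39 mitosis genes 32 had whole values in all 30 libraries. Whole values numbered 1 of 30 for CCNA2 and for SGO1, 6 for PRC1, 8 for PLK1, 17 for KIF23, 20 for KIF4A and 29 for KIF2C. Per the submitters' processing notes FastQC 0.11.9, Trim Galore 0.6.5, STAR 2.7.3a and RSEM 1.3.3 were used with hg38. The annotation release and the counting strand are not given in the sources used here. Of 279 columns, 249 columns of per-sample values were not used. The table held 60675 gene IDs, of which 57055 had a symbol in GENCODE 29.

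Expected counts were rounded to whole numbers, filtered with filterByExpr (17839 genes kept), scaled by TMM and fitted with edgeR 4.0.16 (R 4.3.3, robust glmQLFit), 1 mean per group over all 30 libraries. Each contrast used the quasi-likelihood F-test of edgeR, p-values were adjusted by Benjamini-Hochberg over all tested genes, and the threshold was 0.05. Counts at an unadjusted p under 0.05 are from that test and stand without a share of all genes. The spread of a group with 1 library is taken from the replicated groups. Intervals are at 95%, and log2 CPM used a prior count of 2. The fit was tested on simulated counts.

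Values per library are given for up to 12 genes called in both formulas at 500 µg/mL, for genes called higher there, for genes called between doses, and for up to 6 genes called between Poria Cocos and Atractylodis Rhizoma. From each other list up to 4 called genes were named, and FOXM1, MYBL2, E2F1, CCND1 and CDKN1A always. The member genes and the lists were chosen with earlier results of these data known. As alternatives, DESeq2's size factors were given to edgeR, DESeq2 1.42.0 was run with its Wald test, the filter was dropped, the fit was limited to the compared groups, the replicate number was added as a block, and each library was left out. Scaling by total counts alone, and removing from each library a loess fit (span 0.3) on transcript GC and length, were chosen after seeing the data.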

Additional observations from a re-analysis of the deposited data

How the results depend on the processing

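Counts are of the 39 mitosis genes unless all genes are named. Where a count in this section stands without a share of all genes, the share in that setting is not given. With total counts alone, 8 and 5 genes were higher than vehicle at 500 µg/mL of Palmul-tang and Sibjeondaebo-tang (19.8% and 18.7% of all genes). They numbered 7 and 5 at 100 µg/mL (17% and 18.1%) and 7 and 6 at 20 µg/mL (17.9% and 18.2%). With Samul-tang 9 were higher (21.9%), with Poria Cocos 11 (20.1%) and with Atractylodis Rhizoma 4 (20.3%). Genes called lower on that scale numbered 10 with Samul-tang (9.36%) and 6 with Poria Cocos (9.13%). With the GC and length trend removed, 27 genes were lower with Sibjeondaebo-tang at 500 µg/mL (14% of all genes). At 100 µg/mL 26 were lower with Palmul-tang (10.8%) and 25 with Sibjeondaebo-tang (11.4%). Lower calls numbered 24 with Palmul-tang at 20 µg/mL (11.3%) and 17 with Poria Cocos (12.3%). Genes called higher then numbered 1 for Palmul-tang at 500 and 100 (10.6% and 7.21%), 1 for Sibjeondaebo-tang at 100 (7.87%) and 1 for Poria Cocos (8.8%). They numbered 0 for both formulas at 20 (7.32% and 8.06%), for Samul-tang (9.6%) and for Atractylodis Rhizoma (10.3%). CDK1 and ECT2 changed sign with that removal at 500 µg/mL of Palmul-tang, each to -0.026. Higher calls with Sibjeondaebo-tang at 500 numbered 2 with no filter and 0 in the compared groups alone, and with Palmul-tang at 20 they numbered 5 in the compared groups alone and 4 by DESeq2. Between 500 and 20 µg/mL of Sibjeondaebo-tang 1 gene (NUSAP1) was lower with the trend removed (4.09% of all genes). Between Poria Cocos and Atractylodis Rhizoma 15 genes were then higher (1.38% of all genes). The causes of these changes were not tested.

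With a replicate block 2 genes, NUSAP1 and CDK1, were lower at 500 than at 20 µg/mL of Sibjeondaebo-tang. Of 63 pairs of same-numbered libraries 22 had a correlation of their deviations above 0.1. The range was -0.206 to 0.328 and the median 0.054, beside -0.026 for pairs with different numbers. Not every pair passed 0.1, so the numbers were not taken to pair the libraries. This rule could not exclude a weaker pairing.

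Leaving out each library in turn gave ranges of higher calls of 1 to 4 at 500 µg/mL of Palmul-tang over vehicle, 0 to 1 at 100 and 1 to 3 at 20, of 0 to 2, 1 to 3 and 1 to 3 for Sibjeondaebo-tang at these doses, of 1 to 3 for Samul-tang and 1 to 2 for Atractylodis Rhizoma. The range was 0 to 1 for higher calls of 500 over 20 µg/mL with Palmul-tang, 0 to 1 for lower calls with Sibjeondaebo-tang, and 1 to 13 for Poria Cocos over Atractylodis Rhizoma. With a library left out, calls over all genes in either direction numbered 3219 to 5168 in the comparisons of the formulas with vehicle. Between 500 and 20 µg/mL they numbered 643 to 712 with Palmul-tang and 766 to 1163 with Sibjeondaebo-tang. Over all genes, calls between 500 and 20 µg/mL of Sibjeondaebo-tang numbered 636 in the compared groups alone beside 1113. Calls between the formulas, 1 at first, numbered 0 with size factors, total counts or the compared groups alone, 11 with no filter, 3 with the block, 2 by DESeq2 and 3 with the trend removed. Calls of a difference in dose change, 0 at first, numbered 12 with no filter and 1 with the trend removed. Calls between Poria Cocos and Atractylodis Rhizoma numbered 447 with the trend removed beside 253, and 37 to 397 with a library left out. That comparison could not be fitted on its own groups alone, since no residual degrees of freedom remained.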
